A study of Mus musculus with 2 samples.

Results

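Potassium channel genes of the mouse heart were described, namely the 8 genes Kcnj2, Kcnj3, Kcnj5, Kcnd2, Kcnd3, Kcnip2, Kcnq1 and Kcnh2. They were chosen by gene symbol, each symbol matched 1 gene, and the 8 genes were taken from the 55357 genes listed for each library. Heart cells of C57BL/6 mice were captured in droplets and sequenced as 1 Sham library and 1 TAC library, where TAC is transverse aortic constriction, a surgical narrowing of the aorta that loads the left ventricle with pressure. The TAC mice were males operated on at 8 weeks of age, their aortic arch was ligated, and the constriction lasted 6 weeks. By the sample labels the Sham mice went through the same procedure without the constriction, whereas the design text of the deposit speaks of uninjured mice, and the difference was not settled. The labels give neither age nor sex for the Sham mice. Dissociated cells of 3 to 5 hearts were combined in each library, so each condition had 1 library, no animal could be told from another, and no difference between Sham and TAC could be set against the spread between animals.

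Potassium channels carry the outward currents that end the cardiac action potential and hold the resting membrane potential. Kcnj2 encodes a subunit of the inward rectifier current that stabilises the resting potential, and Kcnj3 and Kcnj5 together form the acetylcholine-activated inward rectifier, through which the vagus nerve slows the atria and the sinus node. Kcnd2 and Kcnd3 encode the pore subunits of the fast transient outward current of early repolarization, with Kcnip2 as the auxiliary subunit that brings them to the membrane, while Kcnq1 and Kcnh2 encode the pore subunits of the slow and the rapid delayed rectifier currents.

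Counts were unique molecular identifiers (UMIs), which tag single captured mRNA molecules. A level is the sum of a gene's UMIs over all cells of a type in 1 library per 1000000 UMIs of those cells, and the ranges in parentheses after values are 95% intervals, which cover counting error only. After filtering, 9472 Sham cells and 9453 TAC cells remained, from libraries of 28146691 and 29108986 UMIs. Cells were clustered in each library without the potassium channel genes, and clusters were named from marker genes. Cardiomyocytes carried 6 or 7 of 7 markers (Myh6, Tnnt2, Actc1, Ttn, Tnni3, Mybpc3, Ryr2) and numbered 2509 in Sham and 2396 in TAC, with medians of 4510 and 4916 UMIs per cell. Of the 32 barcodes that both libraries shared, 3 were cardiomyocytes in both. Among the genes that cardiomyocytes usually raise under load, 0 of 6 were higher in TAC cardiomyocytes by the rule used below and 2 were lower, with Acta1 at 0.355 and Xirp2 at 0.637 times the Sham level. Nppa, which encodes atrial natriuretic peptide, was at 0.758 times, Nppb at 0.774 times, Ankrd1 at 1.002 times and Myh7 at 1.35 times the Sham level, so this list did not serve as a check of the TAC label.

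The positions of the genes were taken from the GENCODE M21 annotation of GRCm38, in which all 8 are protein-coding. Kcnj2 (ENSMUSG00000041695) lies on the plus strand at chr11:111066164-111076821, Kcnj3 (ENSMUSG00000026824) on the plus strand at chr2:55435970-55598145 and Kcnj5 (ENSMUSG00000032034) on the minus strand at chr9:32314707-32344350. Kcnd2 (ENSMUSG00000060882) lies on the plus strand at chr6:21215503-21729805, Kcnd3 (ENSMUSG00000040896) on the plus strand at chr3:105452330-105674002 and Kcnip2 (ENSMUSG00000025221) on the minus strand at chr19:45791839-45816061. Kcnq1 (ENSMUSG00000009545) lies on the plus strand at chr7:143106362-143427042, and Kcnh2 (ENSMUSG00000038319) on the minus strand at chr5:24319589-24351604. Exons cover 51.1% of the span of Kcnj2 but 1.002% of that of Kcnd2 and 1.28% of that of Kcnq1. Several members share their span with other genes, and the use of strand in the counting is not given in the sources used here. Kcnq1 overlaps the antisense transcript Kcnq1ot1 over 93092 bp and the antisense transcript 4933417O13Rik over 41853 bp, so reads of Kcnq1 and of these transcripts may not be fully separated. Kcnd3 overlaps the antisense transcript Kcnd3os over 626 bp, and Kcnd2 overlaps the same-strand transcript Gm42583 over 6700 bp. Kcnh2 overlaps the antisense transcript Gm15589 over 3294 bp, and Gm15589 itself had 2 UMIs in Sham and 1 UMI in TAC cardiomyocytes.

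Promoters are shown for the genes that differed most between TAC and Sham in cardiomyocytes in the direction of lower levels, Kcnh2 and Kcnip2, and for Kcnd2, the member with the most UMIs. Each line holds the 250 bases before the RefSeq transcription start in GRCm38.p6, read in the direction of the gene. Capitals mark matches, on either strand, to a GC box (GGGCGG) or a CCAAT box (CCAAT), 2 of the 5 motifs searched, and the other 3, a TATA box (TATAAA), an E-box (CACGTG) and a GATA motif (AGATAA), had no match in these 3 windows. The windows are chr5:24329592-24329841 on the minus strand for Kcnh2, which lies inside the GENCODE span of the gene, chr19:45816064-45816313 on the minus strand for Kcnip2 and chr6:21215096-21215345 on the plus strand for Kcnd2.
Kcnh2: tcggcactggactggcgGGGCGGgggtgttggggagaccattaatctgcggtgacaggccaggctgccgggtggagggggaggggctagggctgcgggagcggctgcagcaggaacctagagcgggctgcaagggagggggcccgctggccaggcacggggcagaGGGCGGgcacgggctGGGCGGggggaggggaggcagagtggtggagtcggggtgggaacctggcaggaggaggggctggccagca
Kcnip2: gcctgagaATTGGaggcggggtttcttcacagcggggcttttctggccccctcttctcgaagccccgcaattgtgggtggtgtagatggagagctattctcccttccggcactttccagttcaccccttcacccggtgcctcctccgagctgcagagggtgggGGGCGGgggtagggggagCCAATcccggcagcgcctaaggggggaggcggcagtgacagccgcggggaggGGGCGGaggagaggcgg
Kcnd2: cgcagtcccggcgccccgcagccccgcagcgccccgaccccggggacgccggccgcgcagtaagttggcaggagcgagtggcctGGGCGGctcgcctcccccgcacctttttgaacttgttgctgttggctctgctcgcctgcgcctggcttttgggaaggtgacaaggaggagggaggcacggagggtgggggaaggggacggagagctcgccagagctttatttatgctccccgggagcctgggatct

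RefSeq gave a promoter for 7 of the 8 genes, and none was given for Kcnq1. The 7 promoters were rich in G and C, from 58.0% in Kcnj5 to 73.6% in Kcnh2, where the median of 32851 mouse promoters of the same length was 52.4%. The Kcnh2 promoter held 3 GC boxes, the Kcnip2 promoter 2 GC boxes and 2 CCAAT boxes, and the Kcnd2 promoter 1 GC box. Among all promoters, 32.7% held a GC box and 33.8% a CCAAT box. None of the 7 held TATAAA, which 12.4% of all promoters held. These matches describe the letters of the windows and no binding was measured.

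Transcripts of all 8 genes were found mostly in cardiomyocytes. Cardiomyocytes held 52.0% of the UMIs in Sham cells and 49.2% in TAC cells, but between 88.7% (Kcnj2) and 94.8% (Kcnd2) of the members' UMIs in Sham and between 85.6% (Kcnj2) and 95.7% (Kcnj5) in TAC. Set against all other cells of the same library, 8 of 8 members were higher in cardiomyocytes in both libraries by a rule of at least 2-fold with an interval that leaves out 1. By that rule 14.4% of the 15257 genes tested were higher in Sham cardiomyocytes and 14.3% of 15874 in TAC cardiomyocytes.

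The acetylcholine-activated channel genes were well separated from the rest of the heart. Kcnj3 stood at 474 per 1000000 in Sham cardiomyocytes and 29.2 in the other cells, a ratio of 16.2 (14.6 to 18.0), and the TAC ratio was 15.96 (14.6 to 17.5). Kcnj5, its partner subunit, had a ratio of 11.7 (8.02 to 17.7) in Sham and 23.2 (15.3 to 36.9) in TAC, on 29 and 23 UMIs outside cardiomyocytes. The transient outward current genes were similar in this respect, with 16.8 (15.8 to 17.9) and 18.4 (17.4 to 19.5) for Kcnd2, and 14.9 (13.5 to 16.5) and 17.6 (15.8 to 19.7) for Kcnd3. Kcnip2 was 11.04 times (8.84 to 13.9) higher in Sham cardiomyocytes than in the other cells and 11.4 times (8.82 to 15.03) higher in TAC. For the delayed rectifiers the ratios were 12.9 (11.4 to 14.6) and 14.9 (13.3 to 16.7) for Kcnq1, and 13.9 (10.9 to 18.0) and 15.6 (11.1 to 22.6) for Kcnh2. Kcnj2 had the lowest ratios of the 8 genes, at 7.24 (5.37 to 9.95) in Sham and 6.16 (4.69 to 8.22) in TAC. The size of these ratios depended on doublet removal and clustering, and with doublets kept they lay between 4.03 and 9.41.

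**Figure D1:**
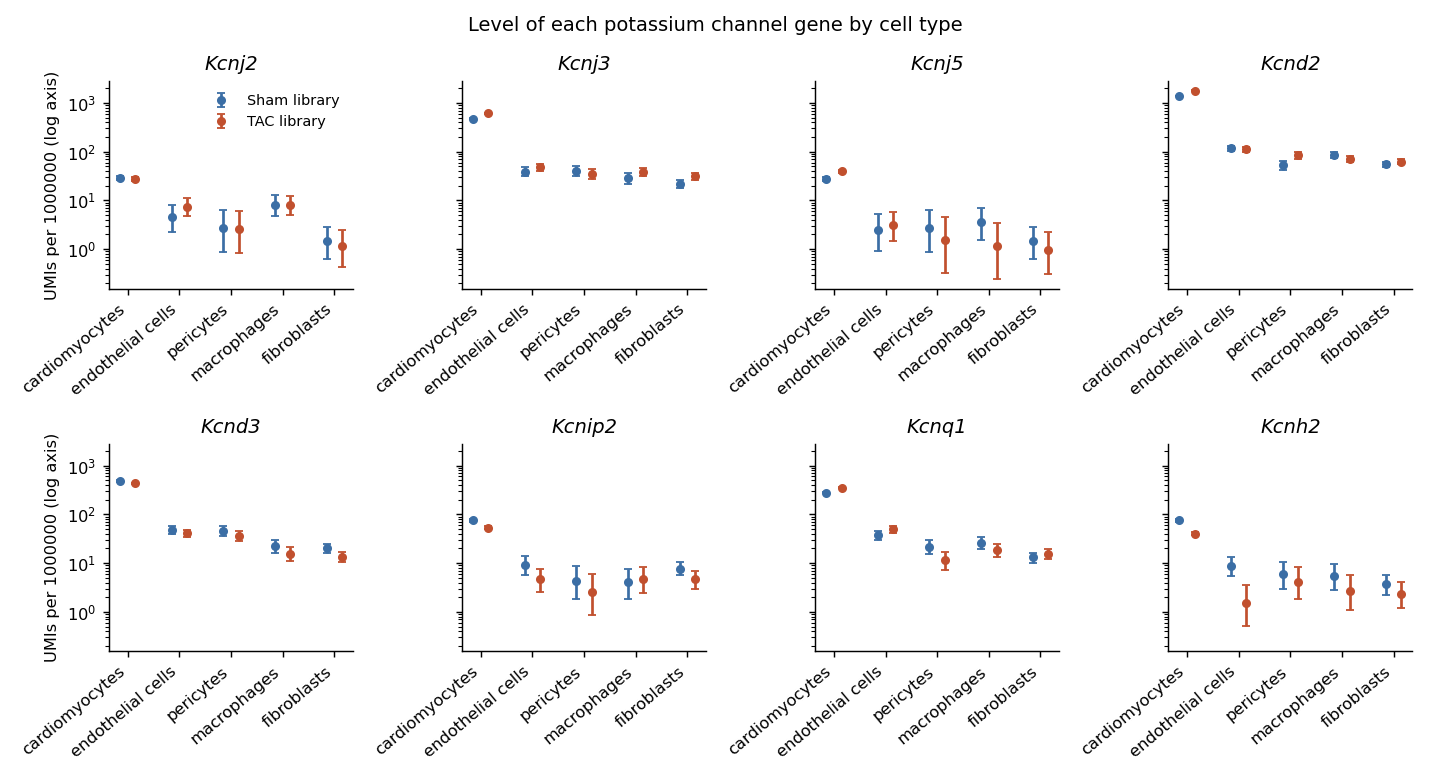
Level of each of the 8 genes (UMIs per 1000000, log axis) in cardiomyocytes, endothelial cells, pericytes, macrophages and fibroblasts of the Sham library (blue) and the TAC library (orange), with 95% intervals for counting error. Among these 5 cell types every gene had its highest level in cardiomyocytes in both libraries, from 27.3 for Kcnj5 in Sham to 1783 for Kcnd2 in TAC.

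The 8 genes spanned a wide range of levels in Sham cardiomyocytes. As levels that were not corrected for length, they ran from 27.3 per 1000000 for Kcnj5 and 28.5 for Kcnj2, through 75.4 for Kcnip2, 76.0 for Kcnh2, 279 for Kcnq1, 474 for Kcnj3 and 485 for Kcnd3, to 1402 for Kcnd2. On this scale the intervals of Kcnj5 and Kcnj2, of Kcnip2 and Kcnh2 and of Kcnj3 and Kcnd3 overlapped in Sham, so neighbours in these pairs were not separated beyond counting error. Long genes with little exonic sequence stood at the top of the order. When the level was divided by the genomic span of each gene, the range narrowed to between 0.870 per kb (Kcnq1) and 3.11 per kb (Kcnip2), with Kcnj5 at 0.921, Kcnd3 at 2.19, Kcnh2 at 2.37, Kcnj2 at 2.67, Kcnd2 at 2.73 and Kcnj3 at 2.92. When it was divided by exon length instead, Kcnd2 led with 272 per kb of exon, followed by Kcnj3 with 90.8 and Kcnq1 with 68.2, and Kcnj2 was last with 5.23. Whether intronic reads were counted is not given in the sources used here, and the order of the genes depended on the length chosen, with Kcnip2 highest per kb of span and Kcnd2 highest per kb of exon in Sham.

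TAC and Sham cardiomyocytes were then compared for each gene. A gene was called higher or lower when the ratio of the levels was at least 1.5-fold in either direction and its interval left out 1, and no p-value was computed, because each condition had 1 library. Kcnh2 was the only 1 of the 8 members called, with a lower level in TAC. By the same rule 17.9% of 13299 genes tested in cardiomyocytes were called, 11.8% higher and 6.13% lower, so a count of 1 in 8 was not above the share among all genes. The median log2 ratio was 0.15 for the 8 members and 0.03 for all genes tested. TAC cardiomyocytes also had a smaller mitochondrial share of UMIs, 0.145% against 0.261%, and a larger share of the nuclear RNA Malat1, 16.2% against 13.1%, and the part of these differences in the ratios was not tested. The paper describes dissociated single cells, and how far the counts of either library reflect nuclear RNA was not tested.

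Kcnh2, the rapid delayed rectifier gene, showed the largest difference of the 8 between the libraries. Its 1024 UMIs in Sham cardiomyocytes gave 76.0 per 1000000 (71.4 to 80.8), and its 529 UMIs in TAC gave 40.4 (37.0 to 44.0). The intervals did not overlap and the ratio was 0.531 (0.477 to 0.591), a log2 ratio of -0.91. It stayed between 0.501 and 0.544 under the 9 alternatives tried. No single cell carried this difference, since the cell with most Kcnh2 UMIs held 0.586% of them in Sham and 0.945% in TAC. Kcnq1, the slow delayed rectifier gene, stood the other way, at 279 per 1000000 (270.2 to 288) in Sham and 355 (345 to 365) in TAC, a ratio of 1.27 (1.22 to 1.33) that was below the 1.5-fold limit. The antisense transcript Kcnq1ot1, which overlaps Kcnq1, was at 365 in Sham and 512 in TAC, a ratio of 1.40 (1.35 to 1.45), and its part in the Kcnq1 level was not tested.

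The genes of the transient outward current were not alike. Kcnip2, the auxiliary subunit, was at 75.4 per 1000000 (70.8 to 80.2) in Sham and 53.2 (49.3 to 57.3) in TAC. The intervals did not overlap, and the ratio of 0.706 (0.640 to 0.778) was short of the 1.5-fold limit. Kcnd2 was at 1402 (1383 to 1423) in Sham and 1783 (1760 to 1806) in TAC, a ratio of 1.27 (1.25 to 1.30). Kcnd3, which encodes the other pore subunit, was at 485 (473 to 497) in Sham and 436 (425 to 447) in TAC, a ratio of 0.899 (0.868 to 0.932). Both pore subunits thus differed between the libraries by more than counting error, in opposite directions and by less than 1.5-fold.

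Among the inward rectifiers, Kcnj2 could not be separated between the libraries. It had 384 UMIs and 28.5 per 1000000 (25.7 to 31.5) in Sham, and 364 UMIs and 27.8 (24.99 to 30.8) in TAC, a ratio of 0.975 (0.842 to 1.13). The acetylcholine-activated subunits were both higher in TAC by less than 1.5-fold. Kcnj3 went from 474 (462 to 485) to 617 (604 to 631), a ratio of 1.30 (1.26 to 1.35), and Kcnj5 from 27.3 (24.6 to 30.2) to 39.4 (36.1 to 43.0), a ratio of 1.44 (1.26 to 1.66). Clusters of cardiomyocytes counted as ventricular-like when at least 3 of the markers Myl2, Irx4, Hey2 and Myl3 were enriched over cells other than cardiomyocytes. The clusters left out had 2 of these markers and 0 atrial markers, so they were not without ventricular markers. When the 2437 Sham and 2091 TAC ventricular-like cells were taken alone, the Kcnj5 ratio was 1.504 (1.31 to 1.73) and passed the limit. Its call thus depended on which cardiomyocytes were included. In the same cells Kcnh2 was at 0.544 and Kcnip2 at 0.697 times the Sham level. By the clusters within cardiomyocytes described below, the cells left out were unlike in Sham and TAC. In Sham they were 72 cells led by Ephb1 and Slit2, with the highest Kcnj5 level of the Sham clusters, 46.7. In TAC they were 305 cells led by Cacna2d3 and Malat1, with the lowest Kcnj5 level of the TAC clusters, 30.9. The TAC cluster led by Slit2 and Slit3, at 45.5, was kept, and the part of these exclusions in the Kcnj5 ratio was not tested.

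**Figure D2:**
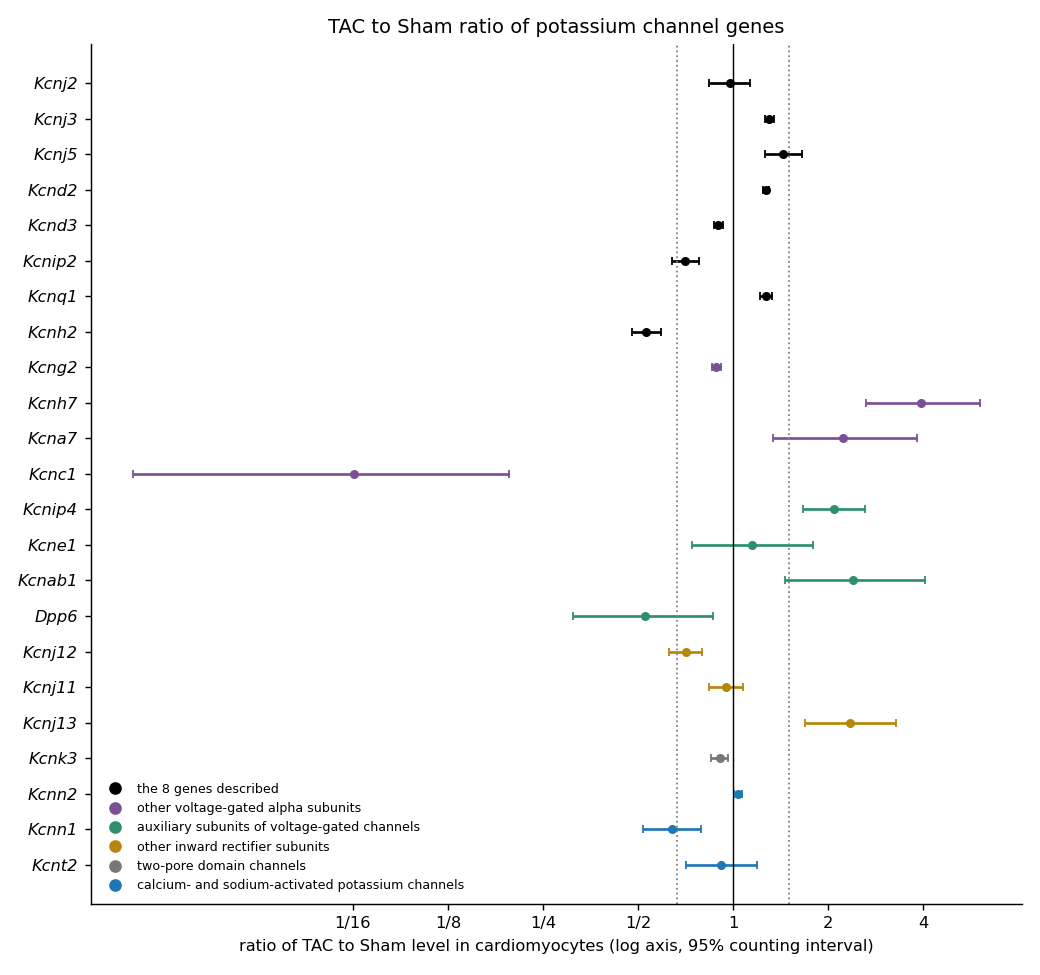
Ratio of the TAC to the Sham level in cardiomyocytes (log axis) for the 8 genes (black) and for the genes of the other potassium channel lists that are described by name (coloured by list), with 95% intervals for counting error, a solid line at 1 and dotted lines at the 1.5-fold limits. Of the 8 genes, Kcnh2 lies beyond the lower limit at 0.531, and among the others drawn Kcnh7 lies highest at 3.95 and Kcnc1 lowest at 0.0630.

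The share of cardiomyocytes with at least 1 UMI of a gene was compared after each cell had been thinned at random to 1000 UMIs, which left out 33 Sham and 12 TAC cardiomyocytes with fewer. Kcnh2 was seen in 8.08% of Sham cardiomyocytes (7.03 to 9.22) and 4.28% of TAC cardiomyocytes (3.50 to 5.17), and in 0.494% and 0.362% of macrophages, which were taken to show the level of free RNA and had medians of 1315 and 1653 UMIs per cell before thinning. Kcnip2 was seen in 7.27% and 5.16% of cardiomyocytes. For both genes the share was lower in TAC, as the summed level was. With so few UMIs per cell the share follows largely from the summed level, so it is not separate evidence. Kcnd2 was the most widely seen gene, in 57.4% of Sham and 63.1% of TAC cardiomyocytes, against 7.81% and 7.59% of macrophages. Kcnj3 was seen in 30.7% and 40.4%, Kcnq1 in 24.2% and 29.8%, and Kcnd3 in 34.5% and 33.4%. Kcnj5 was seen in 2.71% of Sham and 4.19% of TAC cardiomyocytes, and Kcnj2 in 2.75% and 2.52%. At this depth most cardiomyocytes carried no UMI of Kcnj2, Kcnj5, Kcnip2 or Kcnh2, which does not show that these cells lacked the transcript. Without thinning, Kcnh2 was seen in 30.3% of Sham and 18.8% of TAC cardiomyocytes and Kcnd2 in 82.5% and 87.4%.

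Cardiomyocytes fell into 2 clusters in each library, found without the members, which were led by Pdzrn4 in one case and by genes that included Ankrd23 in the other, and which served to see whether the members varied with this division. Kcnj3 was the member that varied most, with 557 per 1000000 in the Pdzrn4 cluster and 370.2 in the Ankrd23 cluster of Sham, a ratio of 1.504 (1.43 to 1.58), and 700.1 against 493 in TAC, a ratio of 1.42 (1.36 to 1.49). Kcnj5 had ratios of 1.33 (1.07 to 1.65) and 1.30 (1.08 to 1.56) between the same clusters. Kcnh2 did not differ beyond counting error between them, with ratios of 1.02 (0.900 to 1.16) in Sham and 1.07 (0.892 to 1.28) in TAC. The cells of the Pdzrn4 cluster were more deeply sequenced, with Sham medians of 5657 and 3717 UMIs per cell in the Pdzrn4 and the Ankrd23 cluster and TAC medians of 5571 and 4210, and the part of depth in these ratios was not tested. Within both clusters Kcnh2 was lower in TAC, at 0.540 (0.470 to 0.620) times the Sham level in the Pdzrn4 cluster and 0.517 (0.436 to 0.611) times in the Ankrd23 cluster. Kcnip2 was at 0.650 (0.572 to 0.738) and 0.789 (0.676 to 0.920) times.

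The cardiomyocytes of each library were then clustered again by themselves, which gave 10 clusters in Sham and 10 in TAC of at least 20 cells. The Kcnh2 level lay between 42.6 and 128 per 1000000 in the Sham clusters and between 31.6 and 52.9 in the TAC clusters. Of the 10 Sham clusters, 9 were above the highest TAC cluster, and the exception at 42.6 was a cluster of 275 cells led by Ankrd1 and Scube2. The TAC cluster led by Ankrd1, with 408 cells, also had the lowest Kcnh2 level of its library, 31.6. The same clusters were lowest for Kcnip2, at 46.0 in Sham and 36.3 in TAC. In TAC the cluster led by Foxp2 and Kcnd2 could not be told from the cluster led by Ankrd1, with Kcnh2 at 33.3 (26.2 to 41.7) and Kcnip2 at 37.2 (29.7 to 46.1). A further Sham cluster, led by Ankrd23 with Ankrd1 among its 10 leading genes, had Kcnh2 at 68.1 and Kcnip2 at 73.4. Kcnh2 was highest in a Sham cluster of 72 cells led by Ephb1 and Slit2, at 128 (93.2 to 172) on 44 UMIs. For how many of all genes the Sham and TAC clusters are set apart to the degree seen for Kcnh2 was not computed.

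The other members overlapped more between the libraries. Kcnip2 lay between 46.0 and 97.3 in Sham clusters and between 36.3 and 81.0 in TAC clusters, with 3 Sham clusters above all TAC clusters. Kcnq1 lay between 224 and 333 in Sham and between 308 and 435 in TAC, with 7 TAC clusters above all Sham clusters. Kcnd2 had a wide spread within each library, from 665 to 2302 in Sham and from 1044 to 2854 in TAC, where the highest cluster was led by Foxp2 and Kcnd2 itself and held 357 cells. Kcnj3 spread from 236 to 726 in Sham and from 452 to 974 in TAC, and Kcnj5 from 13.3 to 46.7 and from 30.9 to 48.6. Kcnd3 spread least in Sham, from 431 to 531, and lay between 347 and 556 in TAC, and Kcnj2 lay between 19.6 and 34.6 in Sham and between 19.99 and 42.2 in TAC.

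**Figure D3:**
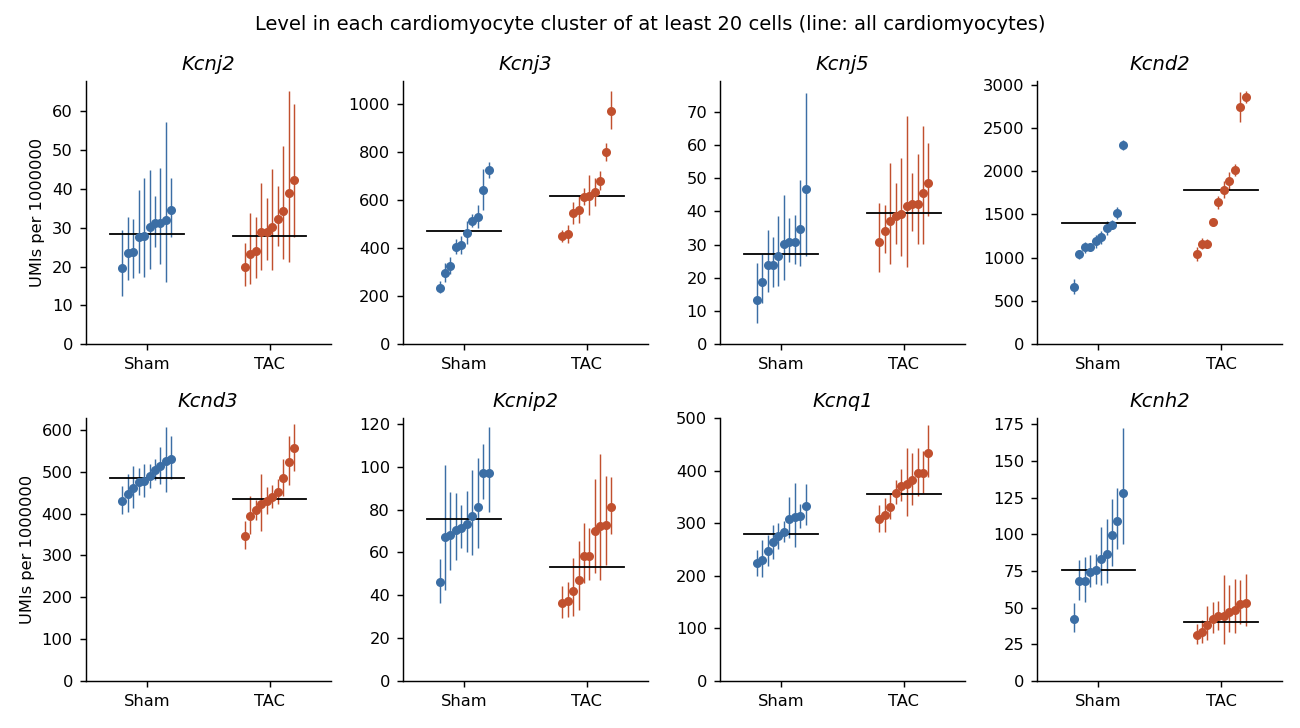
Level of each gene (UMIs per 1000000, linear axes from 0) in the 10 Sham clusters (blue) and the 10 TAC clusters (orange) of cardiomyocytes with at least 20 cells, ordered by level, with 95% intervals for counting error and a line at the level over all cardiomyocytes of the library. For Kcnh2, 9 of the 10 Sham points lie above the highest TAC point of 52.9, whereas the points of Kcnj2 overlap over most of their ranges.

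Clusters found separately need not match between libraries, so the cells of both libraries were also clustered together and the ratio was taken within each joint cluster, an analysis chosen after the data had been seen. In 7 joint clusters with at least 50 cells from each library, which held 1961 of the Sham and 1822 of the TAC cardiomyocytes, Kcnh2 was lower in TAC in 7 of 7, with ratios from 0.463 to 0.717, a median of 0.652 and an interval under 1 in 3 clusters. Kcnip2 was lower in 7 of 7, from 0.319 to 0.883 with a median of 0.625 and an interval under 1 in 4. The median of Kcnh2 within joint clusters was thus closer to 1 than the ratio of 0.531 over all cardiomyocytes. Kcnd2 was higher in 7 of 7, from 1.07 to 2.52, with all 7 intervals above 1, and Kcnq1 in 7 of 7, from 1.10 to 1.46, with 3 intervals above 1. Kcnj3 was higher in 6 and Kcnj5 in 5 of the 7 clusters, and Kcnd3 and Kcnj2 were divided, with 4 lower and 3 higher. Kcnj3 had 3 intervals above 1 and 1 under 1, and Kcnj5 had 1 above and 0 under. Kcnd3 had 1 interval above 1 and 2 under 1, and Kcnj2 had 0 above and 1 under. Most joint clusters were filled unevenly, the largest with 828 Sham and 58 TAC cells, and clusters of 1 library are not replicates of a condition. How many of all genes keep their direction in every joint cluster was not computed, so these counts have no background share beside them.

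**Figure D4:**
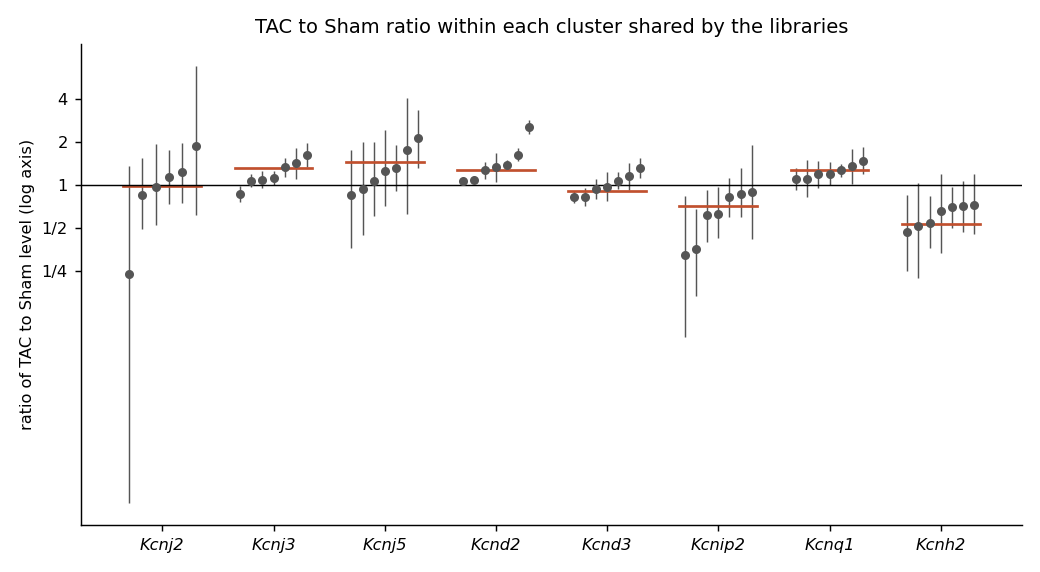
Ratio of the TAC to the Sham level (log axis) within each of 7 joint clusters of cardiomyocytes, 1 point for each cluster with its 95% counting interval, and an orange line at the ratio over all cardiomyocytes, with 1 cluster that had 0 Kcnj2 UMIs in TAC not drawn. All 7 points of Kcnh2 and Kcnip2 lie below 1 and all 7 points of Kcnd2 and Kcnq1 above 1.

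Atrial cells matter for Kcnj3 and Kcnj5, whose channel is known for its role in the atria. No atrial-like cluster was found under the settings used for the other results, in either library. At a lower resolution of 0.5, and likewise at the resolution of 1 once barcodes above 25% mitochondrial UMIs were left out, the same 7 TAC cells formed a cluster with atrial markers, and Myl4, an atrial myosin light chain, had 37 UMIs there, a level 169.6 times that of the ventricular-like TAC cells (111 to 255). Myl2, the ventricular light chain, was at 0.0623 times (0.00754 to 0.225). In these 7 cells Kcnj3 had 103 UMIs, with 1 to 52 UMIs per cell and a median of 11, and 7 of 7 cells held at least 1. Its level of 2709.5 per 1000000 was 4.44 times (3.62 to 5.39) that of the 2389 ventricular-like cells, which was 611. Kcnq1 was 2.01 times (1.32 to 2.93) higher and Kcnd2 was at 0.398 times (0.262 to 0.579), on 27 UMIs each. By the 2-fold rule 4.46% of 11384 genes tested were higher and 1.44% lower in these cells. At a resolution of 2, a cluster of 8 cells that included the same 7 kept the call for Kcnj3, at 4.23 times (3.49 to 5.08), and lost those for Kcnq1, at 1.78 times, and Kcnd2, at 0.573 times. With barcodes above 25% mitochondrial UMIs left out, the calls for Kcnj3, at 4.43 times, Kcnq1, at 2.01 times, and Kcnd2, at 0.398 times, were all kept. Kcnj5 had 4 UMIs in the 7 cells, a ratio of 2.68 (0.728 to 6.90) that could not be told from 1, and Kcnip2 had 0 UMIs against 53.3 per 1000000 in the ventricular-like cells, with an upper bound of 1.82 times. With 7 cells of pooled hearts and no atrial-like cells in Sham, these values describe these cells only.

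Outside cardiomyocytes the members were read against free RNA, which spills from broken cells into all droplets. The level of a gene in a cell type was divided by its level in cardiomyocytes of the same library, and 10 genes of the contractile and calcium-handling apparatus served as the background. They included all 7 markers by which cardiomyocytes were named, whereas the members were left out of the clustering. The background was thus not independent of the cell type names. In Sham macrophages these 10 genes stood between 2.80% and 35.5% of their cardiomyocyte level with a median of 8.92%, and in TAC macrophages between 2.31% and 26.5% with a median of 5.73%. In fibroblasts, endothelial cells, pericytes and macrophages all of the members other than Kcnj2 stood between 2.44% and 13.8% of their cardiomyocyte level. These values were within the wide range of the background genes, so the UMIs could not be told from background. Some intervals lay above the background median of their cell type and others below it. Kcnq1 in TAC endothelial cells was at 13.8% (11.7 to 16.2) against a median of 8.82%. Kcnip2 in Sham fibroblasts was at 10.3% (7.36 to 14.0) against 5.43%, and Kcnd2 in Sham pericytes at 3.75% (3.04 to 4.57) against 7.93%. Whether these cells had transcripts of their own was not tested.

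Relative to its cardiomyocyte level, Kcnj2 was the highest of the members in macrophages and smooth muscle cells. In macrophages it was at 28.5% (16.7 to 45.7) of its cardiomyocyte level in Sham and 29.4% (18.0 to 45.7) in TAC, on 18 and 21 UMIs spread over 17 and 20 cells. These quotients were above the median of the background genes, but their intervals reached below the highest background gene, Myl3. In endothelial cells Kcnj2 was at 15.9% (7.88 to 28.8) in Sham and 26.7% (16.9 to 40.3) in TAC, below the highest background gene at 47.2% and 42.1%. In smooth muscle cells it had 7 UMIs in 4 of 45 Sham cells and 3 UMIs in 2 of 43 TAC cells. The Sham quotient was 218.5% (87.3 to 455), above the highest background gene at 30.1%, and the TAC quotient was 111% (22.7 to 326), whose interval reached below the highest background gene at 27.1%. Kcnh2 in TAC smooth muscle cells, at 50.8% (6.13 to 184) on 2 UMIs, could not be told from Kcnj2 there. Kcnj2 in Sham smooth muscle cells was the 1 case among the members with an interval above the whole background, and it rested on 7 UMIs. That count depended on the background genes used. The highest in TAC smooth muscle cells were Atp2a2 at 27.1% and Actc1 at 25.9%, and whether these cells had such transcripts of their own was not tested. The next, Mybpc3 at 13.1%, lay below the TAC interval of Kcnj2.

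**Figure D5:**
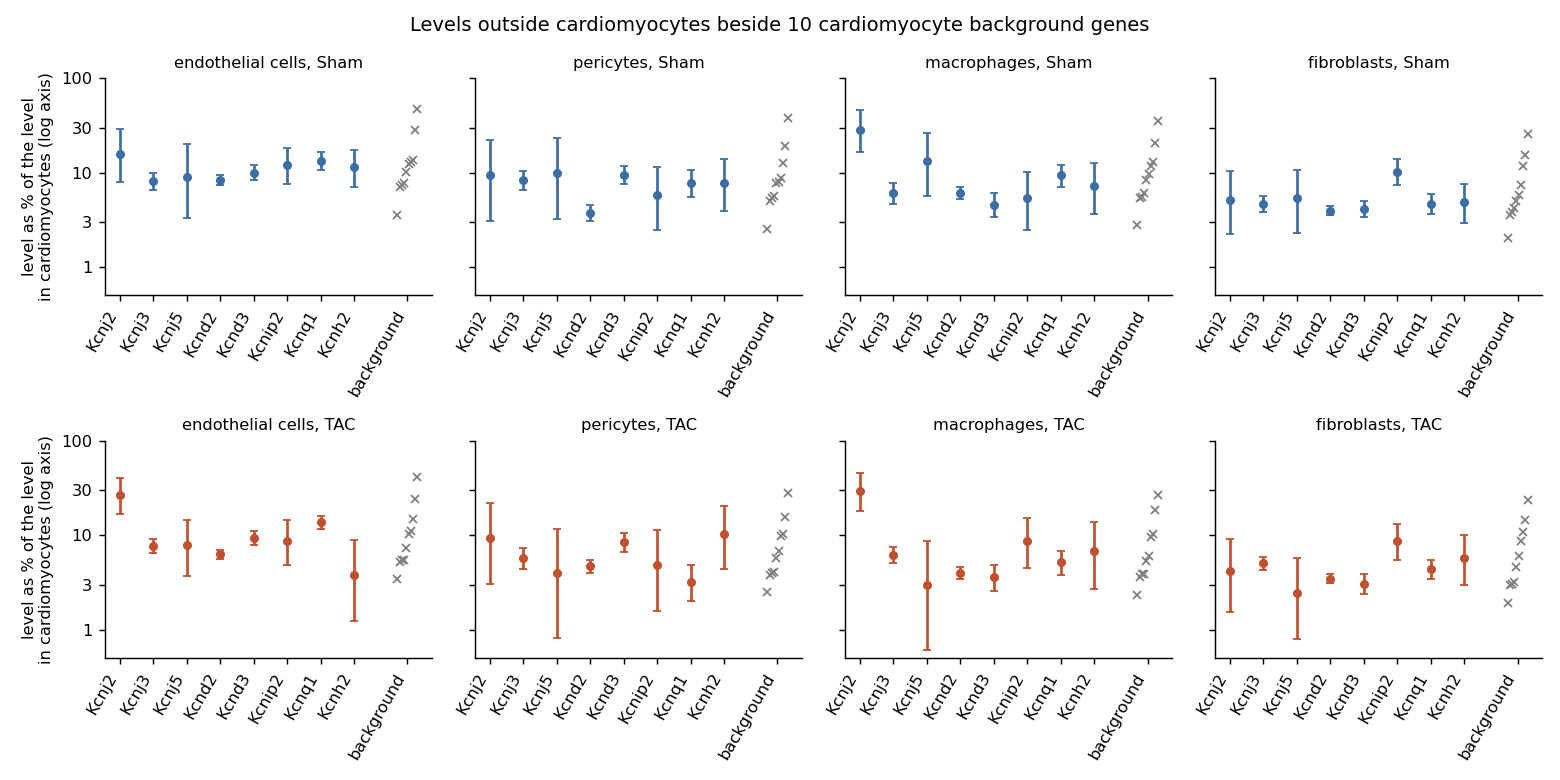
Level of each gene in endothelial cells, pericytes, macrophages and fibroblasts as a percent of its level in cardiomyocytes of the same library (log axis), for Sham (blue) and TAC (orange), with 95% intervals for counting error, beside the 10 background genes (grey crosses). Kcnj2 in macrophages, at 28.5% and 29.4%, is the highest of the 8 genes in the plot, and no gene has an interval that lies wholly above the background genes.

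Few members passed the 1.5-fold rule between TAC and Sham in the other cell types, and the counts there were small. Kcnd3 was lower in TAC fibroblasts, at 13.3 against 20.1 per 1000000, a ratio of 0.662 (0.482 to 0.903) on 69 and 109 UMIs, where 13.3% of genes tested were called in either direction. In pericytes, where 11.2% were called, Kcnd2 was at 84.2 against 52.5, a ratio of 1.60 (1.24 to 2.08), and Kcnq1 was at 11.4 against 21.7, a ratio of 0.528 (0.299 to 0.909). No member was called in endothelial cells, where 12.6% of genes tested were called, or in macrophages, where 15.6% were. Without doublet removal the direction of Kcnd2 turned, with 157 in Sham and 80.0 in TAC pericytes, Kcnd3 was at 52.0 and 14.5 in Sham and TAC fibroblasts, and Kcnq1 was at 34.4 and 11.2 in Sham and TAC pericytes. With barcodes above 25% mitochondrial UMIs left out, Kcnd2 was at 71.0 in Sham and 84.2 in TAC pericytes. As these levels lay in the range of free RNA from cardiomyocytes, they were not read as differences within fibroblasts or pericytes.

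The other potassium channel genes in cardiomyocytes gave a mixed picture. Of 23 other voltage-gated pore subunits in the table, 10 had at least 50 UMIs in cardiomyocytes and were tested, of which 2 were higher in TAC and 2 lower. Kcnh7, from the same gene family as Kcnh2, was higher at 3.95 times (2.64 to 6.07), from 2.30 to 9.08 per 1000000 on 31 and 119 UMIs, and Kcna7 was higher at 2.24 times (1.34 to 3.84). Kcnc1 was lower at 0.0630 times (0.0126 to 0.195), with 49 UMIs in the Sham and 3 in the TAC library. Kcng2, a modifier subunit, had the most UMIs of the list, at 552 in Sham and 489 in TAC, and did not pass the limit.

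Auxiliary subunits with at least 50 UMIs numbered 4 of 13, of which 2 were higher and 1 lower. Kcnip4, a relative of Kcnip2, was at 2.08 times (1.66 to 2.63), Kcnab1, a cytoplasmic beta subunit, at 2.40 times (1.46 to 4.05) and Dpp6, a partner of Kcnd channels, at 0.525 times (0.311 to 0.866) its Sham level. Kcnip4 and Kcnab1 were at higher levels in other cells, Kcnip4 at 88.5 in Sham and 100.02 in TAC macrophages against 8.61 and 17.9 in cardiomyocytes, and Kcnab1 at 155 and 145 in pericytes against 1.78 and 4.27, and the part of free RNA from those cells was not tested. Kcne1, the partner of Kcnq1 in the slow delayed rectifier, had 42 and 47 UMIs and a ratio of 1.15 (0.743 to 1.79). Of 12 other inward rectifiers, 3 were tested. Kcnj13 was higher at 2.34 times (1.69 to 3.29), from 4.01 to 9.39 per 1000000. Its level was also larger in TAC in the other large cell types, at 7.005 and 18.7 in Sham and TAC fibroblasts, 3.71 and 12.7 in endothelial cells, 8.13 and 12.99 in pericytes and 1.81 and 10.5 in macrophages. By contrast, Kcnj12, a further subunit of the resting inward rectifier, at 0.707 times (0.627 to 0.797) and Kcnj11, the pore of the ATP-sensitive channel, at 0.953 times (0.842 to 1.08) its Sham level did not pass.

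The remaining channel families had few genes to test. Kcnk3 was the only 1 of 8 two-pore channels tested, at 153 in Sham and 139 in TAC. Of the calcium- and sodium-activated channels, 3 of 10 were tested. Kcnn2 was at 754 and 781, Kcnt2 had a ratio of 0.919 (0.711 to 1.19), and Kcnn1 was lower at 0.643 times (0.519 to 0.794). Kcnt2 was far higher in fibroblasts, at 2143 in Sham and 2037 in TAC, than in Sham cardiomyocytes, at 9.79. Endothelial cells, pericytes and macrophages also had more Kcnt2 than cardiomyocytes in both libraries. The part of free RNA from those cells in the Kcnt2 ratio was not tested. Of 7 regulators and partners of the members, all 7 were tested, 1 was higher and 1 lower. Etv1, a transcription factor of fast-conducting myocardium, was at 1.59 times (1.28 to 1.98) its Sham level, from 10.4 to 16.5 per 1000000. It was far higher in pericytes, at 178 in Sham and 174 in TAC, and in macrophages, at 130.1 and 189, and the part of free RNA from these cells was not tested. Irx5, a repressor of Kcnd2 in the heart wall, was at 1.05 times (0.838 to 1.31) its Sham level. Akap9, the scaffold of the Kcnq1 channel, was at 311 in Sham and 251 in TAC, a ratio of 0.807 (0.770 to 0.844).

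Genes with the most similar pattern were found from the correlation of log2(level + 1) over 11 profiles, 5 cell types in Sham and 6 in TAC, among 13437 genes. Cardiomyocytes entered as the ventricular-like cells only. The profiles share libraries and all 8 members were highest in the ventricular-like cells, so the correlations are given as a description with no test. The closest genes to Kcnj3 were Gm47494 (Pearson r = 0.996) and Trdn (0.992), which encodes triadin of the calcium release unit. For Kcnj5 they were Bves (0.992) and Fsd2 (0.983), for Kcnj2 Gm10138 (0.979) and Slc25a13 (0.970). For Kcnd2 they were Ppp1r14c (0.994) and Gm36037 (0.994), for Kcnd3 Atcayos (0.985) and Mrps5 (0.982), and for Kcnip2 Esrrb (0.982) and Osbp2 (0.982). For Kcnq1 they were Slc16a1 (0.983) and Ncapd2 (0.975), and for Kcnh2 Tmem82 (0.982) and BC037032 (0.982).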

How the data were processed

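Single-cell RNA sequencing of dissociated mouse hearts was analysed for 1 Sham and 1 TAC library. The deposited values are raw counts, in which the authors had summed UMIs for every gene in every barcode. Per the submitters' processing notes the counts came from Cell Ranger 7.1.0, while the paper names an earlier version for the counting and Seurat for later steps. The labels and the paper give different versions of the 3-prime kit. The genome build, the annotation, the barcode filter and the settings for strand and introns are not given in the sources used here. Of 55357 gene identifiers, 52081 (94.1%) were in GENCODE M21, which was used for positions, and promoters came from RefSeq (GRCm38.p6).

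The Sham counts held 9935 barcodes with a median of 1964 UMIs and the TAC counts 9932 with a median of 2143, and the lowest total was 500 UMIs. Barcodes under 200 detected genes (1 in each library) and doublets called by Scrublet (462 in Sham, 4.65%, and 478 in TAC, 4.81%) were removed. The software was pandas 2.3.3, numpy 2.4.6, matplotlib 3.10.9, scipy 1.17.1, igraph 0.11.9, scanpy 1.11.5 and anndata 0.12.19 under Python 3.11.15. Each library was normalized to 10000 UMIs, log-transformed and clustered by itself by the Leiden method (resolution 1, 15 neighbours, 30 components from 2000 variable genes), without potassium channel, load response and mitochondrial genes or genes that overlap the members. Clusters were named by 3 or more markers that 10% or more of their cells held and that were enriched by a log2 fold of 1 or more, so the names are rebuilt ones. Levels have exact Poisson intervals, ratios exact conditional binomial intervals and shares of cells exact Clopper-Pearson intervals. Genes with at least 50 UMIs over both sides of a comparison were tested against the fold limits, and no p-value was computed.

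The members and gene lists were chosen with earlier results of these data known. Named genes were the 8 members, the genes of the fixed lists that passed the 1.5-fold rule, the 2 of each list with most UMIs and the 2 most similar genes of each member. Further genes of the lists with at least 50 UMIs, Akap9, Irx5, Kcnt2 and the load response genes, were named after their values had been seen. Some genes that these rules would name are counted in their lists but are not reported here by name. The rule for ventricular-like cells, the exclusion of overlapping genes from the clustering, the equal weight of cells and the ratios within joint clusters were set after seeing the data. Alternatives tried were a minimum of 500 detected genes, a maximum of 25% mitochondrial UMIs, no doublet removal, resolutions of 0.5 and 2, joint clustering, totals without mitochondrial genes, ventricular-like cells only, equal weight of cells and thinning to 500 or 2000 UMIs or none. On simulated counts for the ratio in cardiomyocytes, 95.9% of 197 tested genes changed by 2-fold were called among 13275 genes, and 1.03% of 13078 unchanged genes. These counts were drawn with counting error only from a profile pooled over both libraries. The shares thus do not cover spread between cells, animals or libraries. In 1500 simulated Sham cells drawn over 55357 genes, the cell types were named as drawn. These cells were drawn from the summed profiles of the types as named here, so they could not show whether those names are right.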

Additional observations from a re-analysis of the deposited data

How the results depend on the processing

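The ratio of TAC to Sham in cardiomyocytes was recomputed 72 times over the 8 members and kept its direction each time. In 70 cases it moved by less than its interval, and the exceptions were Kcnd2, at 1.23 with a resolution of 2, and Kcnj3, at 1.35 in ventricular-like cells only. Kcnh2 stayed at or below 0.544 in the 9 alternatives, and Kcnj5 passed the 1.5-fold limit with ventricular-like cells only (1.504) and stood at 1.52, with no interval, with cells of equal weight. The ratio of cardiomyocytes to other cells kept its direction in 128 of 128 values and moved beyond its interval in 37. With at least 500 detected genes the Sham ratios were 4.55 for Kcnj2, 7.84 for Kcnj3, 6.36 for Kcnj5, 8.56 for Kcnd2, 7.32 for Kcnd3, 6.78 for Kcnip2, 7.28 for Kcnq1 and 6.40 for Kcnh2. With no doublets removed the ratios in Sham and TAC were 5.37 and 4.03 for Kcnj2, 7.89 and 7.77 for Kcnj3, 7.43 and 9.41 for Kcnj5, 7.89 and 8.35 for Kcnd2, 7.28 and 7.70 for Kcnd3, 5.54 and 7.08 for Kcnip2, 6.84 and 7.61 for Kcnq1, and 6.86 and 8.27 for Kcnh2. With a resolution of 2 the Sham ratios were 3.81 for Kcnj2, 5.00 for Kcnj3, 4.52 for Kcnj5, 6.43 for Kcnd2, 5.02 for Kcnd3, 4.60 for Kcnip2, 5.32 for Kcnq1 and 4.53 for Kcnh2. With each cell given the same weight, the Sham and TAC ratios were 13.1 and 12.3 for Kcnj3 and 13.4 and 16.2 for Kcnd2, and the Sham ratio was 10.6 for Kcnq1. The causes were not tested. Of 640 levels, 56 moved beyond their interval, 36 of them with no doublets removed, and the shares of cells moved with the number of UMIs to which cells were thinned. No paired analysis was possible because Sham and TAC had 1 library each, and for the same reason no library could be left out. The atrial-like comparison had no value under the settings used for the other results and was made at resolutions of 0.5 and 2 and with at most 25% mitochondrial UMIs. Depth limited Kcnj2 and Kcnj5, with 364 to 517 UMIs in the cardiomyocytes of a library, and all members in smooth muscle and lymphatic endothelial cells.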

Other observations

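Some potassium channel genes of the same lists had their highest level outside cardiomyocytes, and these were chosen after their values had been seen. Kcnj8, the pore subunit of the vascular ATP-sensitive channel, stood at 409 per 1000000 UMIs in Sham pericytes and 567 in TAC pericytes, against 1.11 and 2.06 in cardiomyocytes. Kcna5, a subunit of the ultrarapid delayed rectifier, had 0 UMIs in Sham and 3 UMIs in TAC cardiomyocytes and stood at 32.6 in Sham and 20.1 in TAC endothelial cells and at 16.8 and 6.75 in pericytes.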
